A study of Solanum tuberosum with 9 samples.

Results

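In stolons of potato, 37 of 25702 measured genes fell at each step from nitrogen deficiency over conventional supply to excess. They were chosen by their counts in all 9 libraries. A gene had to reach a mean of at least 2 CPM (the count scaled to the library's total). Its lowest library under deficiency had to lie above its highest under conventional supply, and its lowest under conventional supply above its highest under excess. Its mean log2(CPM + 0.5) had to drop by at least 0.5 at both steps. Of the genes counted, 17034 reached the minimum level and 39 met every threshold. By name, 10 genes were left out, of which 2 had met the thresholds. Because these values chose the genes, their levels and drops are a description and carry no test.

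The plants were of the variety Kexin 13. The labels give 3 nitrogen treatments, AN0 for deficiency, AN1 for the conventional amount and AN2 for excess, with 3 libraries each and no fertilizer doses, plant ages or harvest times. Whether the 3 libraries were made from different plants is not stated, so the spread between them may partly be technical. Stolons are underground side shoots whose tips swell into tubers. Nitrate serves plants both as a nutrient and as a signal. Plants short of nitrogen are known to raise transcripts for scavenging and reusing it, and an ample supply is known to delay tuber formation in potato.

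All 37 genes are listed as protein-coding in RefSeq's gene table of the assembly SolTub_3.0, and 0 of them has a name or a synonym there beyond its locus number. Among all genes at the minimum level, 2.5% have one. The sources used here give no product for any of the 37, so no function is stated for them. The name-pattern lists of pathways and markers therefore could hold none of them. Of the 10 genes left out by name, those that met the thresholds were the nitrate reductase NR3, which reduces nitrate to nitrite, and LOC102588954, a cytosolic fructose-1,6-bisphosphatase of sucrose synthesis. NR3 stood at 26.2, 12.5 and 17.8 CPM in AN0, at 2.15, 2.99 and 1.62 CPM in AN1, and at 1.04, 1.31 and 0.258 CPM in AN2. The list for nitrate and ammonium uptake and assimilation matched 4 genes at the minimum level, NR3, the nitrite reductase NIR and the amino acid permeases AAP2 and aap1 (LOC102597666), and NR3 was the 1 that met the thresholds. With a step counted as positive where the level fell, the median step of these 4 was 1.92 from AN0 to AN1 and -0.72 from AN1 to AN2 in log2(CPM + 0.5), beside -0.02 and -0.16 over all genes at the minimum level.

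Libraries held between 30952622 and 38235348 counts. Patatin (LOC102605260), the main storage protein of the tuber, belongs to a family of near-identical genes, so its counts are uncertain. It was present in all of them, with 3567 CPM in library AN0-1, 485 CPM in library AN2-3 and 10574 to 18044 CPM in the other 7. The 5 photosynthesis genes at the minimum level, of 7 matched by name, had a sum of 755 CPM in AN0-1, a sum of 685 CPM in AN2-3, and sums from 9.58 to 85.0 CPM in the other 7. Among them the chlorophyll-binding protein gene cab1 (LOC102596966) reached 247 CPM in AN0-1 and 6.82 CPM in AN2-3, with no more than 2.25 CPM elsewhere. These libraries, 1 of AN0 and 1 of AN2, thus stand apart from the rest. Values without them are given for the 37 together and for some of the genes described singly. Steps of other genes may move too.

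The 37 genes took 0.813%, 0.940% and 0.632% of all counts in the AN0 libraries. They took 0.343%, 0.366% and 0.409% in AN1, and 0.200%, 0.246% and 0.229% in AN2. In bulk RNA, a smaller share of some cell type and less RNA per cell cannot be told apart. In each library the 3 genes with the most counts, LOC102598559, LOC102577597 and LOC102595762, made up between 64.4% and 74.1% of that sum. The drop from AN0 to AN2 in mean log2(CPM + 0.5) ran from 1.02 to 4.04 with a median of 1.88. As a ratio of mean CPM, AN0 was between 2.07 and 22.2 times AN2, with a median of 4.43. The drop was at least 2 on the log2 scale in 15 genes and at least 3 in 5.

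**Figure D1:**
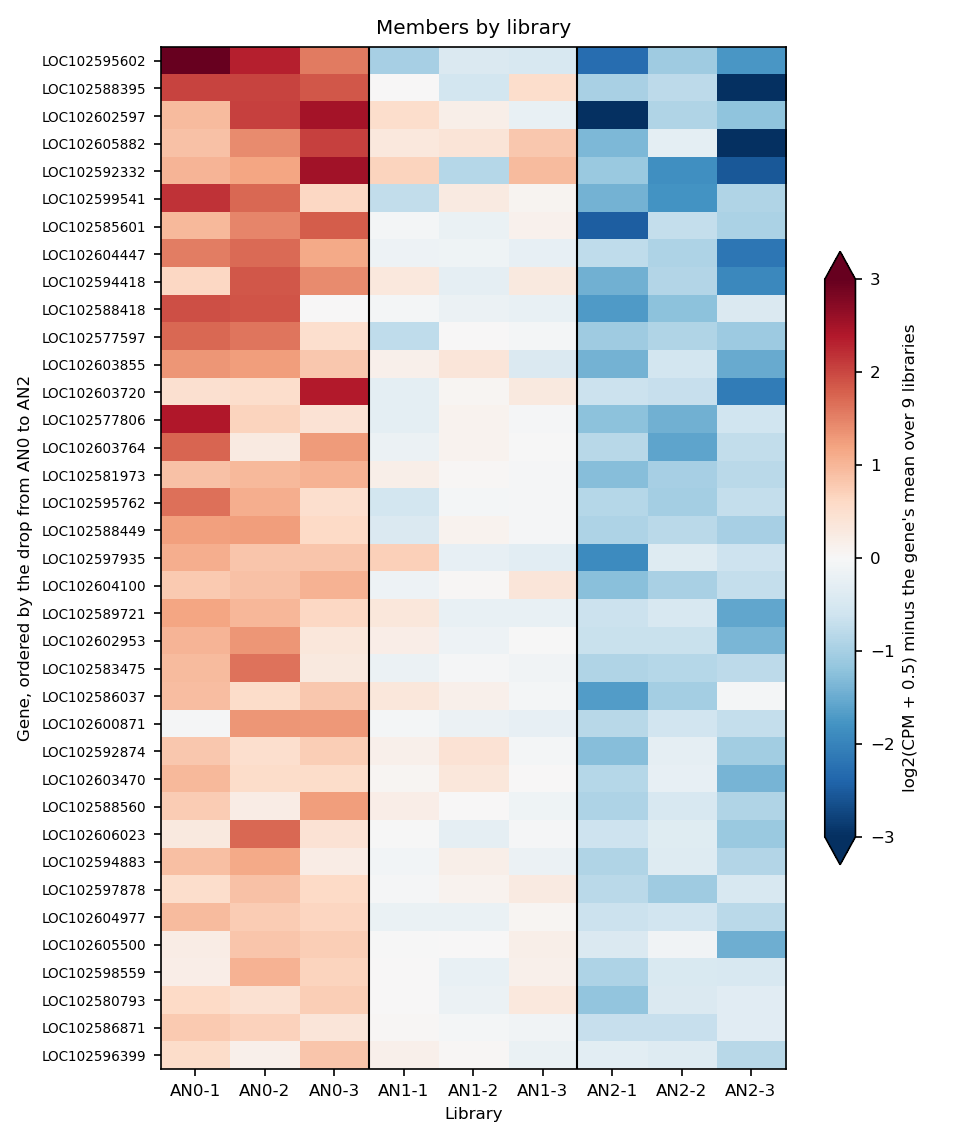
Each row is 1 of the 37 genes, ordered by the drop from AN0 to AN2, and each column 1 library; color is log2(CPM + 0.5) relative to the mean of that row. The AN0 columns are red, the AN1 columns pale and the AN2 columns blue in nearly all rows, while the library with the deepest color differs from gene to gene.

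LOC102595602 had the largest drop and the most uneven pair of steps. It stood at 79.2, 46.7 and 27.1 CPM in AN0, at 4.17, 6.44 and 6.17 CPM in AN1, and at 1.41, 3.94 and 2.26 CPM in AN2. Most of its change lay between deficiency and conventional supply, a step of 2.97 on the log2 scale against 1.07 at the second step. Its lowest AN0 library was 4.2 times its highest AN1 library, while its lowest AN1 library was 1.06 times its highest AN2 library. Without AN0-1 and AN2-3 its steps were 2.59 and 1.04, and LOC102602597, with steps of 2.12 and 2.54, then had the larger drop. That larger drop of LOC102602597 rests on a single read in AN2-1.

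LOC102588395 fell in nearly equal steps, 1.97 and 1.96 on the log2 scale, the highest lesser step of the 37. Its AN0 libraries were close together at 178.9, 179.0 and 161 CPM, followed by 43.9, 29.9 and 63.2 CPM in AN1. In AN2 it stood at 21.9, 25.3 and 2.04 CPM, so AN2-3 lay far below the other AN2 libraries. AN2-3 is also the library with the least patatin. Without AN0-1 and AN2-3 the steps of this gene were 1.95 and 0.88, so their likeness and the rank rest on AN2-3. LOC102602597 then had the highest lesser step, 2.12, but that rank in turn rests on a single read in AN2-1.

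With all libraries, LOC102602597, LOC102605882 and LOC102592332 had their larger step between conventional supply and excess. LOC102602597 stood at 14.3, 31.5 and 43.3 CPM in AN0, at 10.6, 8.25 and 6.09 CPM in AN1, and at 0.0288, 3.63 and 2.84 CPM in AN2. The AN2-1 value is a single read. The steps of this gene were 1.67 and 2.15 on the log2 scale, and that the second was the larger rests on this read. LOC102605882 had the largest second step, 2.46 on the log2 scale, from 85.6, 89.7 and 120.8 CPM in AN1 to 26.5, 56.1 and 3.2 CPM in AN2. In AN0 it stood at 127.6, 185 and 285 CPM, so AN0-1 was 1.06 times AN1-3. Without AN0-1 and AN2-3 its second step was 1.33, below that of LOC102602597 (2.54) and LOC102592332 (1.74). The value of 2.54 rests on the single read of LOC102602597 in AN2-1. LOC102592332 stood at 5.76, 6.57 and 17.1 CPM in AN0, at 4.45, 1.21 and 5.52 CPM in AN1, and at 0.921, 0.371 and 0.0323 CPM in AN2. It had the highest ratio of AN0 to AN2 means, 22.2, on low counts: 32 reads in AN2-1 were its highest AN2 count.

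**Figure D2:**
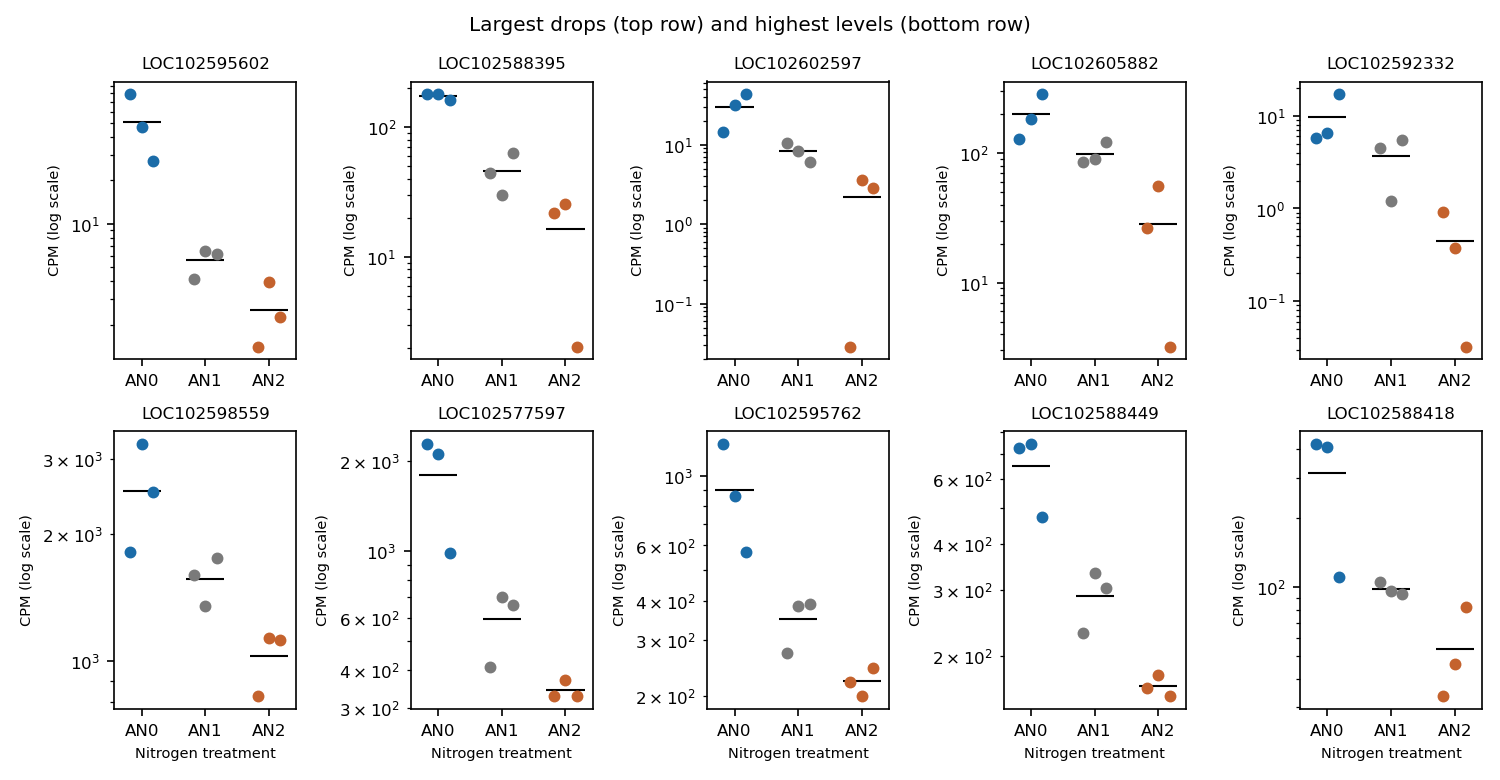
Points are CPM in single libraries on log axes, in the order of their numbers within each treatment, and lines are means of 3 libraries. The top row shows the 5 largest drops, where single AN2 libraries (AN2-1 or AN2-3) fall far below the others for 4 genes, and the bottom row the 5 genes with the most counts, whose AN2 values lie closer together.

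The gene with the most counts and also the highest level per length was LOC102598559, with a mean of 734 FPKM (CPM divided by gene length) over the 9 libraries. The mean level of the 37 ran from 0.970 to 734 FPKM with a median of 9.29 FPKM. LOC102598559 stood at 1812, 3254 and 2509 CPM in AN0, at 1598, 1352 and 1751 CPM in AN1, and at 827, 1137 and 1121 CPM in AN2. Its steps were 0.66 and 0.61 on the log2 scale, among the smaller ones. Its lowest AN0 and highest AN1 libraries differed by a factor of 1.03. Under the TMM scaling of edgeR or the size factors of DESeq2, both of which adjust for differences in library composition, it no longer met the rule.

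LOC102577597, LOC102595762, LOC102588449 and LOC102588418 were the other genes with many counts, and their first step was the larger one with all 9 libraries. Without AN0-1 and AN2-3 the steps of LOC102588418 were 1.11 and 1.31, so its second step was then the larger. The others kept the larger first step. LOC102577597 stood at 2283, 2120.0 and 986 CPM in AN0, at 411, 701 and 662 CPM in AN1, and at 329, 372 and 327 CPM in AN2. The AN0 mean was 3.04 times the AN1 mean, and the AN1 mean was 1.73 times the AN2 mean. LOC102595762 stood at 1261, 862 and 571 CPM in AN0, at 273, 384 and 392 CPM in AN1, and at 222, 199 and 246 CPM in AN2. LOC102588449 stood at 727, 744 and 472 CPM in AN0, at 229.7, 333 and 304 CPM in AN1, and at 163, 177 and 155 CPM in AN2. LOC102588418 stood at 421, 409 and 111 CPM in AN0, at 106, 96.5 and 93.3 CPM in AN1, and at 33.4, 46.2 and 81.7 CPM in AN2. In all 4 genes AN0-3 was the lowest AN0 library and AN1-1 to AN1-3 lay within a narrower range than the AN0 libraries.

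Some further members were picked out after their values were seen. LOC102581973 had tight groups at a low level, with 6.58 ± 0.38 CPM in AN0, 3.29 ± 0.26 CPM in AN1 and 1.30 ± 0.29 CPM in AN2 (SD, n = 3). Both of its gaps between neighbouring treatments were wide for its level, with nearest libraries differing 1.73 and 1.93 times. LOC102604447 fell from 15.5 ± 3.12 CPM over 4.57 ± 0.20 CPM to 2.06 ± 1.12 CPM. Without AN0-1 and AN2-3 its second step was 0.67 on the log2 scale, against 1.11 with all libraries. LOC102594418 fell from 184.7 ± 74.5 CPM over 77.5 ± 16.5 CPM to 27.2 ± 10.1 CPM. LOC102604977 fell from 126.0 ± 13.5 CPM over 67.4 ± 6.74 CPM to 45.5 ± 4.0 CPM. For these 4 genes the nearest libraries of neighbouring treatments differed by more than counting error at both steps, though the same libraries chose the genes. LOC102585601, a gene of 530 bases and the shortest of the 37, had 0 counts in AN2-1, which allows up to 0.0864 CPM there (3 counts, counting error only). It stood at 1.2 and 0.937 CPM in AN2-2 and AN2-3, at 1.93 to 2.51 CPM in AN1, and at 4.98 to 9.24 CPM in AN0.

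In several members 1 AN0 library stood apart from the other two. LOC102577806 stood at 33.7 CPM in AN0-1 against 9.81 and 8.31 CPM in AN0-2 and AN0-3, with 4.76 to 6.5 CPM in AN1 and 1.88 to 3.78 CPM in AN2. Without AN0-1 and AN2-3 its first step was 0.63 on the log2 scale, against 1.25 with all libraries. LOC102603720 had its high value in AN0-3, at 33.0 CPM against 8.41 and 8.75 CPM in AN0-1 and AN0-2, with 4.73 to 7.38 CPM in AN1 and 1.00 to 3.60 CPM in AN2. Without AN0-1 and AN2-3 its second step was 0.69, against 1.17 with all libraries. LOC102606023 had its high value in AN0-2, at 158 CPM against 58.2 and 64.2 CPM, with 39.2 to 47.4 CPM in AN1 and 21.6 to 36.9 CPM in AN2. For LOC102600871 AN0-1 was the low one instead, at 19.3 CPM against 50.0 and 49.5 CPM, and AN1 followed at 16.5 to 18.9 CPM. Its first step was 1.47 without AN0-1 and AN2-3, against 1.03 with all libraries. The library that stood apart thus differed among these genes, which were picked out after their values were seen. The highest AN0 library was at least 2 times the lowest in 17 of the 37, a count not taken over all genes. The median of that ratio was 1.86 in the 37 and 1.76 over all genes at the minimum level.

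In other members the AN0 libraries lay close together. LOC102604100 stood at 4.56, 4.90 and 5.57 CPM in AN0, at 2.18, 2.55 and 3.30 CPM in AN1, and at 0.748, 0.999 and 1.29 CPM in AN2. LOC102597935 stood at 4.11, 3.34 and 3.33 CPM in AN0 but had uneven AN1 values of 3.05, 1.34 and 1.23 CPM, so that AN1-1 was close to AN0. In AN2 it had 0.0864 CPM in AN2-1, which is 3 counts, and 1.14 and 0.905 CPM in the others. LOC102580793 stood at 15.7, 14.2 and 17.4 CPM in AN0, at 10.4, 9.06 and 13.0 CPM in AN1, and at 4.26, 7.45 and 8.01 CPM in AN2. In each of these genes AN2-1 was the lowest AN2 library.

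The balance between the steps differed among the 37. The first step was the larger in 20 genes and the second in 17, and their medians were 0.96 each on the log2 scale. In 17 genes the steps differed by less than 0.25. In 4 genes the first step was larger by at least 0.5, and in 3 the second. Both steps were at least 1, a halving or more, in 12 genes.

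**Figure D3:**
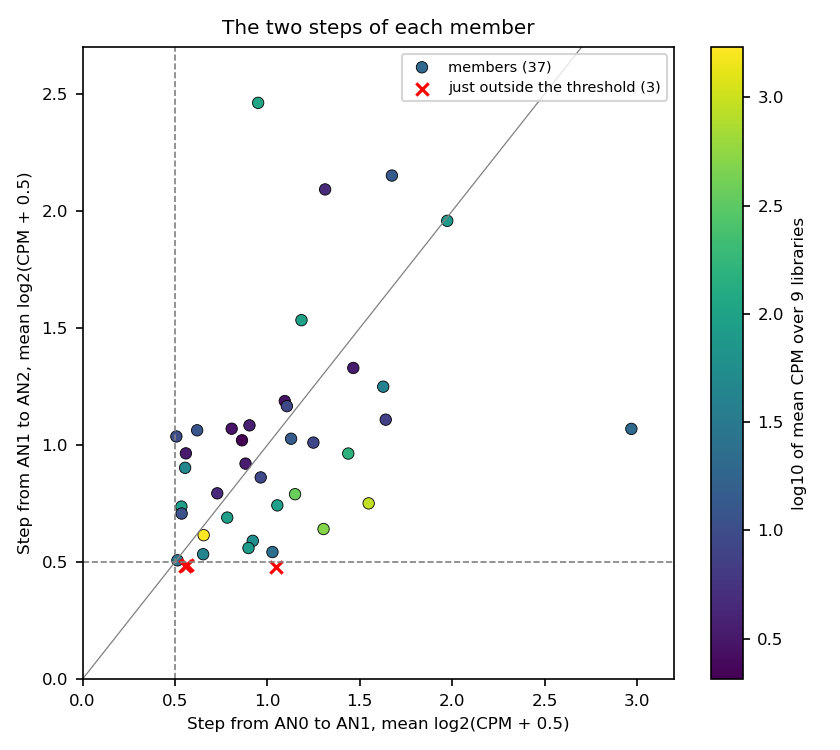
Each point is 1 gene, with its step from AN0 to AN1 on the x axis and from AN1 to AN2 on the y axis, both in mean log2(CPM + 0.5), colored by log10 of mean CPM. Dashed lines mark the threshold of 0.5 and the solid line equal steps; crosses are the 3 genes just outside, and most points lie near the solid line, with LOC102595602 far to the right at 2.97.

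The genes on either side of the threshold had steps of similar size. Just inside were LOC102596399, with steps of 0.51 and 0.51, LOC102592874 with 0.51 and 1.04, and LOC102586871 with 0.65 and 0.53. Just outside were LOC102594094 with 0.56 and 0.49, LOC102580488 with 0.55 and 0.48, and LOC102578742 with 1.05 and 0.48. LOC102594094 stood at 362, 441 and 434 CPM in AN0, at 316, 219.6 and 308 CPM in AN1, and at 195, 201 and 197 CPM in AN2. It missed the rule by the size of a step alone.

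The nearest libraries of neighbouring treatments often lay close together. Of the genes at the minimum level, 1546 (9.08%) had every AN0 library above every AN1 library, 682 (4%) every AN1 above every AN2, and 866 (5.08%) every AN0 above every AN2. Both of the first 2 orders held in 76 genes, from which the sizes of the steps left 39. In the 37, the lowest AN0 library exceeded the highest AN1 library by a median factor of 1.22, with a range from 1.00 to 4.2. The lowest AN1 library exceeded the highest AN2 library by a median factor of 1.22, with a range from 1.00 to 1.93. A factor under 1.1 at either gap was found in 15 genes. The narrowest gaps were those of LOC102586037, with 10.54 CPM in AN1-3 beside 10.53 CPM in AN2-3, and of LOC102596399, with 29.95 CPM in AN0-2 beside 29.93 CPM in AN1-1.

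Many of these gaps are within the counting error of the libraries beside them. Exact Poisson 95% intervals of the 2 nearest libraries did not overlap at the first gap in 17 genes, at the second in 18, and at both in 13. These counts were not taken over all genes, and the same libraries chose the genes. They describe the chosen genes only, and whether they are high or low was not tested. Those 13 include LOC102588395, LOC102602597, LOC102577597, LOC102595762, LOC102588449, LOC102598559 and LOC102581973. In the other 24 the strict order of all 9 libraries rests on at least 1 pair of libraries whose intervals overlap. LOC102595602, the gene with the largest drop, is 1 of these 24, with 134 counts in AN1-1 and 138 counts in the deeper AN2-2.

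**Figure D4:**
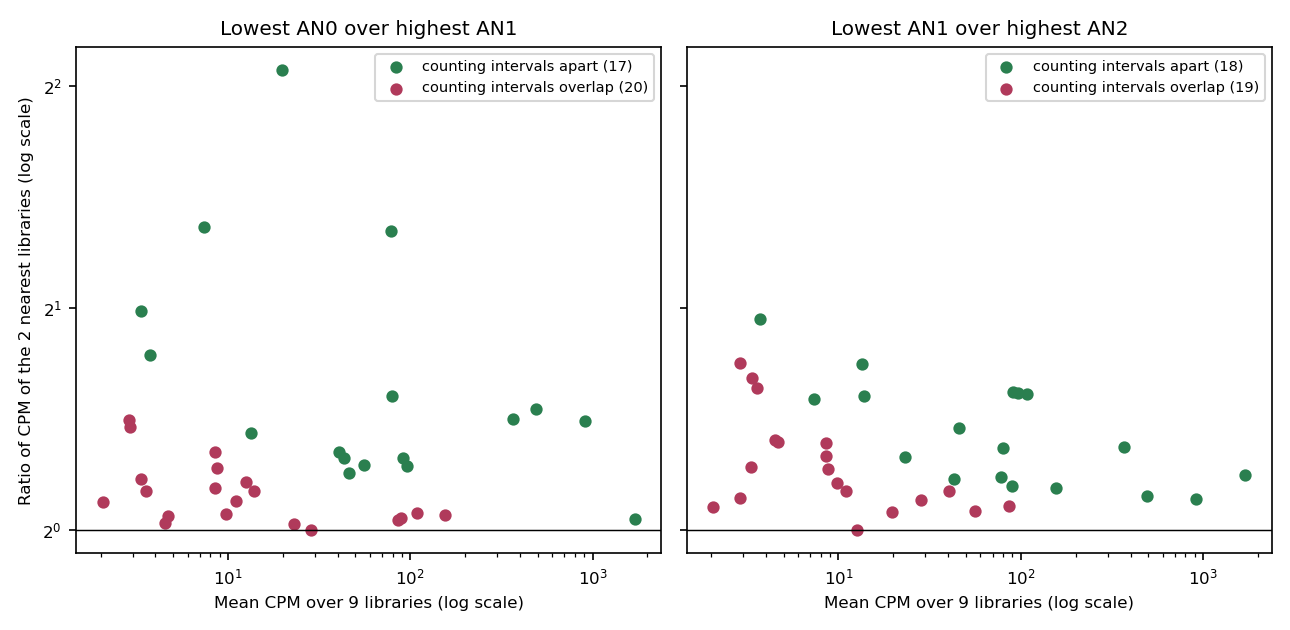
For each of the 37 genes, the y axis (log scale) gives the ratio of CPM between the nearest libraries of neighbouring treatments and the x axis (log scale) its mean CPM, with the first gap on the left and the second on the right. Green points (17 and 18) have Poisson 95% intervals that do not overlap, red points (20 and 19) intervals that do, and the second gap never reaches a ratio of 2.

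Within a treatment the 37 genes did not share 1 order of libraries. AN0-1 was the highest AN0 library for 15 genes, AN0-2 for 12 and AN0-3 for 10. Over all genes at the minimum level AN0-1 was highest in 49.1%, AN0-2 in 18.7% and AN0-3 in 32.1%. The order AN0-1 over AN0-2 over AN0-3, in which the photosynthesis genes summed to 755, 83.4 and 20.9 CPM, held for 12 of the 37, among them LOC102577597, LOC102595762, LOC102588418 and LOC102595602, and for 36.9% of all genes. The reverse order held for 7, among them LOC102605882, LOC102602597 and LOC102592332, and for 23.7% of all genes. In AN2 the lowest library was AN2-1 for 16 genes, AN2-3 for 16 and AN2-2 for 5, whereas AN2-2 was lowest in 64.8% of all genes at the minimum level. These orders are on raw CPM, and the TMM factors were 1.18 in AN2-1, 0.92 in AN2-2 and 1.21 in AN2-3. The rule used the same raw values, so nothing is read from these orders. Within treatments the highest library was a median of 1.86 times the lowest in AN0, 1.34 times in AN1 and 1.96 times in AN2. Over all genes at the minimum level these ratios were 1.76, 1.43 and 1.78. The AN2 median of the members covers 36 genes, without LOC102585601 and its 0 counts in AN2-1. The rule bounds the AN1 values from both sides, so nothing is read from this comparison.

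Without AN0-1 and AN2-3 the median steps of the 37 were 0.94 and 0.86 on the log2 scale, and 31 genes still had both steps of at least 0.5. The other 6 were LOC102592874, LOC102596399, LOC102603470, LOC102604977, LOC102605500 and LOC102606023, with a lesser step between 0.34 and 0.49. Leaving out a library also loosens the rule, since fewer values have to be in order. Applied without these libraries, it gave 77 genes, of which 30 were among the 37.

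The choice was repeated with each library left out in turn, and the library that had no part in it was then examined. Without AN0-1, AN0-2 or AN0-3 the rule chose 62, 42 and 52 genes, and 58.1%, 76.2% and 61.5% of them lay above every AN1 library in the AN0 library left out. Among all genes at the minimum level with the other 2 AN0 libraries above AN1 and a first step of at least 0.5, the shares were 63.9%, 72.1% and 52.1%. Without AN2-1, AN2-2 or AN2-3 it chose 45, 69 and 59 genes, and 77.8%, 56.5% and 59.3% of them lay below every AN1 library in the library left out. Comparison genes chosen on the second step alone gave 71.4%, 55.3% and 53.9%. For the end treatments, then, the genes chosen for both steps kept their place in an unseen library about as often as genes chosen for a single step.

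For the middle treatment the comparison was of another kind. Without AN1-1, AN1-2 or AN1-3 the rule chose 46, 73 and 41 genes, and 67.4%, 53.4% and 85.4% of them lay between AN0 and AN2 in the AN1 library left out. Among all genes with every AN0 library above every AN2 library and a drop of at least 1, 38.1%, 28.9% and 43.7% did. These comparison genes were not selected on any AN1 library, while the chosen genes had the other AN1 libraries in order, so a higher share among the chosen genes was favoured by the choice and nothing is read from it. In all 3 treatments the chosen genes are contained in the comparison genes, and no difference was tested. AN1-2 was the AN1 library with the lowest share, with 34 of 73 chosen genes out of order.

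**Figure D5:**
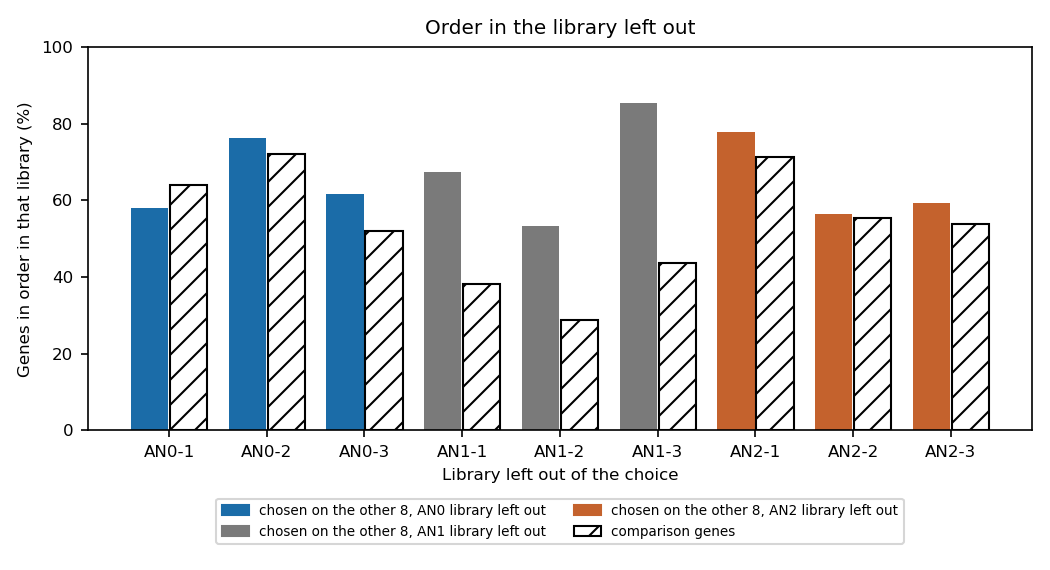
Filled bars give the percent of genes chosen on 8 libraries that kept their place in the library left out, colored by its treatment, and hatched bars the same for comparison genes chosen on 1 step, or on the AN0 to AN2 drop for AN1. The filled and hatched bars are within 10 points of each other for AN0 and AN2 libraries, and for AN1, where the comparison genes were chosen without any AN1 library, they stand at 53.4% to 85.4% and 28.9% to 43.7%.

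In fits across all 21223 genes tested by edgeR's quasi-likelihood test (adjusted p under 0.05), the background of calls was 0.0377% higher in AN0 than in AN1, 0.0518% lower in AN2 than in AN1, and 1.3% lower in AN2 than in AN0. Of the 37 genes, 0 were called at the first step, 1 at the second (LOC102597878), and 28 between the ends. At an unadjusted p under 0.05 by edgeR there were 25, 27 and 37, with a background of 6.67%, 4.23% and 9.16%. DESeq2 called 12, 12 and 37 of them, with a background of 2.14%, 1.33% and 5.23% in the same directions. Since the same libraries chose the genes, nothing is read from these counts. The median log2 fold change of the 37 was 1.11 at deficiency and -1.18 at excess, both against conventional supply, and -2.31 at excess against deficiency, beside 0.02, 0.02 and 0.01 over all genes tested. The comparisons share libraries. The count of 28 became 16 without AN0-1, 12 without AN0-2, 20 without AN0-3, 16 without AN1-1, 20 without AN1-2 and 15 without AN1-3. It became 10 without AN2-1, 31 without AN2-2, 19 without AN2-3, and 17 when AN0-1 and AN2-3 were both left out. Over all genes tested, 276 were called lower in AN2 than in AN0 with all libraries. In the same order of settings these became 135, 41, 312, 109, 161, 84, 33, 399, 108 and 111. The count of 1 became 0 without any 1 of AN0-2, AN0-3, AN1-1, AN1-2, AN1-3, AN2-1 or AN2-3, and 2 without AN2-2. Calls lower in AN2 than in AN1 over all genes were 11 with all libraries and 92 without AN2-2. They were at most 8 where the count became 0. The count of 0 became 3 without AN0-3 and 1 without AN2-3. Calls higher in AN0 than in AN1 over all genes were then 96 and 25, against 8 with all libraries.

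LOC102597878, the gene called at the second step, stood at 60.7, 78.4 and 64.2 CPM in AN0, at 41.2, 45.6 and 50.7 CPM in AN1, and at 23.7, 19.99 and 29.9 CPM in AN2. Its steps were 0.55 and 0.90 on the log2 scale. The Poisson intervals of its nearest libraries did not overlap at either gap, but the same libraries chose the gene, so nothing is read from this.

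The opposite course was more common. The mirrored rule, for genes that rise at both steps, chose 130 genes (0.763% of those at the minimum level), 3.33 times the 39 that fell (0.229%). The same rule with the order AN2 over AN0 over AN1, which is not stepwise with supply, chose 38 genes (0.223%). The remaining orders chose 3 to 9. The scaling bears on this comparison. On raw CPM the median gene at the minimum level had a step of -0.02 from AN0 to AN1 and -0.16 from AN1 to AN2, that is, a higher level in AN2. TMM scaling shifted the median gene by 0.07 in AN0, 0.06 in AN1 and -0.13 in AN2 on the log2 scale. On TMM-scaled CPM the rising rule chose 101 genes and the falling rule 59, and with size factors they chose 98 and 59. Without the genes left out by name the falling rule chose 56 on TMM-scaled CPM, 31 of them among the 37. The 6 that no longer met it, under TMM or size factors, were LOC102605882, LOC102592332, LOC102600871, LOC102606023, LOC102605500 and LOC102598559.

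The falling genes were of ordinary level and somewhat longer than the average gene. Their median mean level was 19.7 CPM, against 19.3 CPM over all genes at the minimum level and 10.7 CPM over the rising genes. Their gene length, recovered from counts and FPKM, ran from 530 to 4460 bases with a median of 2077 bases, against 1713 bases over all genes at the minimum level and 1382 bases over the rising genes. Length and level differences between these sets were not tested.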

How the data were processed

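The authors deposited whole-number read counts per gene and FPKM values for 9 libraries. Per the submitters' processing notes, fastp, HISAT2, HTSeq, R 3.2.0 and DESeq2 were used, without roles. The sources used here do not give the settings, genome build or strand handling. Deposited FPKM equals count divided by gene length and library total, with a largest relative difference of 1.71e-07 once lengths were rounded. Gene IDs were matched to RefSeq's table of SolTub_3.0 (25672 of 25702).

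Members were chosen on raw CPM. The members and lists were chosen with earlier results of these data known. The background came from edgeR 4.0.16 (R 4.3.3, quasi-likelihood, TMM, filterByExpr, robust, 1 mean per treatment, Benjamini-Hochberg), with DESeq2 1.42.0 and limma 3.58.1 as alternatives. Scripts were tested on simulated data. Named genes are the 5 largest drops, the 5 with the most counts and 3 on each side of the threshold. Poisson intervals are exact at 95% and cover counting error only. Every pair of same-treatment libraries differed beyond sampling noise. The replicate numbers were not shown to pair the libraries, so no block was used.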

Additional observations from a re-analysis of the deposited data

How the results depend on the processing

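The 37 genes depend on the exact rule. Their number became 64 with a step of at least 0.25, 12 with a step of at least 1, 56 with TMM-scaled CPM and 56 with size factors, and 77 without AN0-1 and AN2-3 (an alternative chosen after seeing the data). It ran from 41 to 73 with 1 library left out, with 62 without AN0-1, 73 without AN1-2, 69 without AN2-2 and 59 without AN2-3. Other minimum levels, pseudocounts and FPKM gave 28 to 40. The replicate numbers were not shown to pair the libraries, since 2 of 9 same-numbered pairs had a correlation of deviations over 0.1 (from -0.55 to 0.22). With the replicate block, taken as the lowest same-numbered difference per step, 8 genes were left. The lowest difference is never above the mean step, so this condition can only shorten the list. Nothing about pairing is read from it. In edgeR, over 21223 genes tested, the replicate block gave 0 calls between AN0 and AN1, 5 between AN1 and AN2 and 166 between AN0 and AN2. The fit with no block gave 10, 148 and 774. These totals hold both directions. In the falling direction there were 0, 1 and 42 calls with the block and 8, 11 and 276 without it. Among the 37 genes there were 0, 0 and 13 against 0, 1 and 28.

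DESeq2 called 656, 1235 and 2726 genes in both directions, and 460, 305 and 1203 in the falling direction. It called 12, 12 and 37 of the 37. Limma on log2(FPKM + 1) called 12, 410 and 1219 genes in both directions, and 11, 25 and 271 in the falling direction. On log2(FPKM + 0.1) it called 0, 322 and 1237, and 0, 25 and 275 in the falling direction. On both scales 0, 0 and 35 of the 37 were called. Without a filter 0 of the 37 were called for AN2 against AN1, where 11 of 25702 genes tested were called lower in AN2. Without AN0-1 and AN2-3 there were 0, 15 and 296 calls in both directions and 0, 2 and 111 in the falling direction, with 0, 0 and 17 among the 37. With 1 library left out the calls in both directions ran from 0 to 109, from 0 to 367 and from 110 to 1077. In the falling direction they ran from 0 to 96, from 0 to 92 and from 33 to 399. Among the 37 they ran from 0 to 3, from 0 to 2 and from 10 to 31. The cause was not tested.

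The sign of the fold changes of the 37 is fixed by how they were chosen, so only their size is given. For AN2 against AN1 the median log2 fold change was -0.72 on log2(FPKM + 1), -1.05 on log2(FPKM + 0.1) and -0.94 without AN0-1 and AN2-3, and from -1.43 to -0.96 with 1 library left out. For AN2 against AN0 it was -1.53 and -1.98 on the 2 FPKM scales, and from -2.52 to -2.15 with 1 library left out. A larger pseudocount draws low values together by construction. For single genes only the fold change of AN2 against AN0 was followed, not the steps. Of 592 refitted values, 573 moved by less than the gene's spread between libraries, and 19 moved by more. That spread is the larger SD within AN0 or AN2, so genes with uneven libraries were given a wide limit. Depth limits the low members, of which 9 had a mean under 5 CPM.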
